A study of Mus musculus with 6 samples.

Results

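The enzymes of de novo purine and pyrimidine synthesis were followed in mouse macrophages given stearic acid, a saturated fatty acid. The 10 genes are Ppat, Gart, Pfas, Paics, Adsl and Atic, which lead to inosine monophosphate (IMP), the IMP dehydrogenases Impdh1 and Impdh2, and Cad and Umps of the pyrimidine pathway. They were taken by name from the 36333 genes listed for each library. All 10 were found, and all 10 lay above the filter of a mean of 1 TPM that 11551 genes passed. Both groups were C57BL/6 macrophages grown from bone marrow for 7 days with 10 ng/mL of the macrophage growth factor M-CSF. They were replated at 250000 cells per well, washed 1 day later and treated for 24 h. The stearic acid group (3 libraries) received 100 µM stearic acid, and the vehicle group (3 libraries) received an equal volume of ethanol. Libraries are numbered 1 to 3 in each group, with nothing on whether they came from separate animals or cultures. The p-values therefore reflect the spread among these 6 libraries, which may be technical.

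Cells build purines step by step on a ribose phosphate, and the first committed step, by PPAT, is held back by the purine nucleotides it leads to. IMP then branches to AMP and GMP, and IMP dehydrogenase opens the GMP branch. Pyrimidines are built as a free ring, started by the trifunctional protein CAD and closed to UMP by UMPS. Proliferating cells depend on these routes, which are known targets of the growth regulator MYC and of mTORC1 signalling, whereas resting cells rely more on salvage of preformed bases and nucleosides.

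Libraries held 64.0 to 76.3 M (M, 1e+06) reads or read pairs with stearic acid and 58.1 to 80.7 M with vehicle, as recovered from the steps between low values. At that depth 1 TPM (a transcript's share of the library, per length) stood for 19.1 to 27.7 of these units per kilobase. Stearic acid replicate 1 lay nearest to the vehicle libraries: its median absolute log2 distance from the vehicle mean over all tested genes was 0.112, against 0.245 and 0.167 in replicates 2 and 3. All 9 listed macrophage markers were detected. In the test described below 5 fell and 1 rose with stearic acid, where 11.9% of all tested genes were lower and 12.8% higher. The 5 falls became 2, 0 and 1 without vehicle replicate 1, 2 and 3 in turn. They became 3 without stearic acid replicate 3, 7 without stearic acid replicate 1, and 2 with no filter on low values. The summed level of the 9 macrophage markers was 23588 to 29234 TPM with stearic acid and 33225 to 34112 TPM with vehicle. The summed levels of the 7 lymphoid and 9 neutrophil and progenitor markers were 1.28 to 1.80 and 6.49 to 7.22 TPM with stearic acid, against 2.64 to 2.95 and 2.49 to 4.75 TPM with vehicle. Dendritic, erythroid and mast cell lists summed to at most 1.10 TPM with stearic acid and 1.26 TPM with vehicle. Cd3e, Cd3d, Hbb-bs and Mcpt8 were listed at 0 throughout. The stromal list summed to 0.765 to 2.52 TPM with stearic acid and 1.46 to 3.12 TPM with vehicle. The part of these markers in the results was not tested. In bulk RNA, fewer cells of a type and less RNA per cell cannot be told apart.

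With stearic acid Impdh1 rose, Paics fell slightly, and the other 8 enzymes did not pass the test. The test was limma on log2(TPM + 1), adjusted over all 11551 genes with a threshold of 0.05. On that scale Impdh1 was 1.76-fold higher and Paics 0.852-fold its vehicle level. Thus 2 of 10 members passed, where 24.7% of all tested genes did: 1 member was higher and 1 lower, against 12.8% and 11.9% of all genes. The members' count was near that background in both directions. Their median log2 change was 0.23, against -0.03 over all tested genes. Without stearic acid replicate 1, 6 members rose and Paics fell, in a fit that called 19.2% of all genes higher and 24.2% lower. Without vehicle replicate 2 both calls were lost (limma adjusted p = 0.054 for Impdh1 and 0.080 for Paics), where 3.32% of all genes were higher and 1.43% lower. Summed over the 8 purine members the level was 588, 685 and 674 TPM in stearic acid replicates 1, 2 and 3, against 631, 628 and 620.1 TPM in vehicle replicates 1, 2 and 3. The sum of Cad and Umps was 59.9, 71.8 and 68.6 TPM with stearic acid, against 64.4, 61.1 and 61.1 TPM with vehicle. Both sums lay below the vehicle libraries in replicate 1 and above them in replicates 2 and 3.

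**Figure D1:**
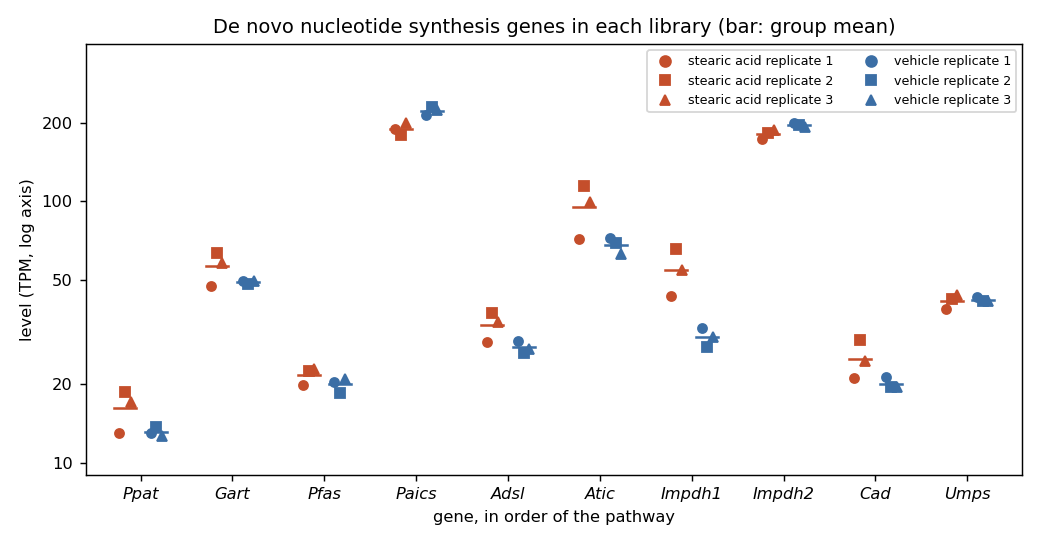
Level of each of the 10 enzymes in every library, in TPM on a log axis, with stearic acid libraries (orange) left of vehicle libraries (blue); the symbol gives the replicate and the bar the group mean. Impdh1 is above its vehicle libraries and Paics and Impdh2 are below theirs in all 3 stearic acid libraries, while stearic acid replicate 1 (circle) lies at or near vehicle levels for Ppat, Pfas, Adsl, Atic and Cad.

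The mRNAs of the enzymes stood at very different levels. With stearic acid the means ran, from high to low, Paics (189 TPM), Impdh2 (181 TPM), Atic (95.5 TPM), Gart (56.4 TPM), Impdh1 (54.7 TPM), Umps (41.7 TPM), Adsl (33.7 TPM), Cad (25.03 TPM), Pfas (21.7 TPM) and Ppat (16.3 TPM). With vehicle the order was the same except that Umps (42.1 TPM) stood above Impdh1 (30.3 TPM). In the stearic acid libraries the values of the neighbours Paics and Impdh2, Gart and Impdh1, Impdh1 and Umps, Adsl and Cad, and Cad and Pfas overlapped, and those of the other neighbours did not. Among vehicle libraries the neighbours Impdh1 and Adsl, and Cad and Pfas, overlapped, and the other neighbours did not. Ppat, which encodes the committed first enzyme, was the lowest member in both groups.

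IMP dehydrogenase oxidises IMP on the way to GMP, and mammals make it from a pair of genes. Impdh1 (NCBI gene 23917, chromosome 6, 29200436 to 29216364, GRCm38.p6) was at 43.5, 66.0 and 54.6 TPM in stearic acid replicates 1, 2 and 3, against 32.8, 27.8 and 30.3 TPM in vehicle replicates 1, 2 and 3. Every stearic acid library lay above every vehicle library. Its mean was 54.7 ± 11.2 TPM with stearic acid and 30.3 ± 2.48 TPM with vehicle (SD, n = 3 each), a log2 fold change of 0.81 (SE 0.14, limma adjusted p = 0.0065). A larger log2 change was seen in 1.83% of all tested genes. The rise passed in 13 of 14 alternatives and was lost when vehicle replicate 2 was left out (limma adjusted p = 0.054).

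Impdh2, the isozyme that proliferating cells mainly use (gene 23918, chromosome 9, 108560436 to 108565577), was at 173, 183 and 187 TPM with stearic acid and at 199, 195 and 193 TPM with vehicle. The stearic acid libraries were all lower, by little, and the change did not pass (log2 -0.11, 95% interval -0.25 to 0.03, limma adjusted p = 0.20). A lack of overlap alone was common: 44.6% of all tested genes showed it. Within libraries, the ratio of Impdh1 to Impdh2 was 0.251, 0.360 and 0.292 with stearic acid, against 0.165, 0.143 and 0.157 with vehicle. The Impdh2 transcript thus remained the more abundant in every library, and Impdh1 mRNA came closer to it in each stearic acid library. An exact two-sided permutation test of this log ratio gave p = 0.1, the smallest that 3 against 3 libraries allow, also after adjustment over the 4 ratios computed.

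**Figure D2:**
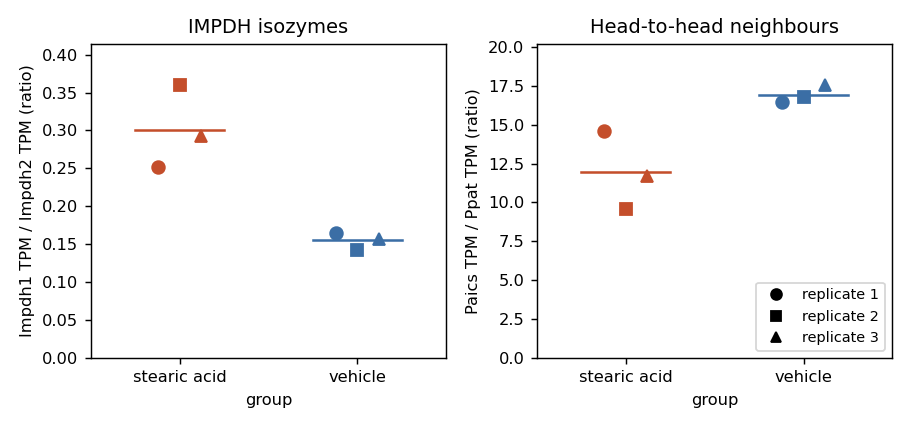
Ratio of Impdh1 to Impdh2 and of Paics to Ppat within each library, computed from TPM, with stearic acid left of vehicle; symbols give the replicate and bars the group mean. The Impdh1 to Impdh2 ratio is 0.251 to 0.360 with stearic acid and 0.143 to 0.165 with vehicle, and the Paics to Ppat ratio is 9.56 to 14.6 with stearic acid and 16.5 to 17.6 with vehicle.

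The promoter windows of this isozyme pair, from 250 bases before to 50 after each RefSeq start, are shown because Impdh1 rose while Impdh2 did not pass. Impdh1 has 2 annotated starts 4067 bases apart, and the deposited tables give 1 value for the gene, so the starts cannot be told apart here. The sequences are RefSeq windows on GRCm38.p6, written 5′ to 3′ on the gene's strand. Capitals mark matches to the motifs searched on both strands: the E-box CACGTG to which MYC with MAX can bind, the E2F forms TTTCCCGC and TTTGGCGC, the ATF4 composite element TGATGNAA, the ETS site CCGGAAGT, CCAAT and the NRF1 core GCGCATGC.
Impdh1, distal start, chr6:29216315-29216614, minus strand: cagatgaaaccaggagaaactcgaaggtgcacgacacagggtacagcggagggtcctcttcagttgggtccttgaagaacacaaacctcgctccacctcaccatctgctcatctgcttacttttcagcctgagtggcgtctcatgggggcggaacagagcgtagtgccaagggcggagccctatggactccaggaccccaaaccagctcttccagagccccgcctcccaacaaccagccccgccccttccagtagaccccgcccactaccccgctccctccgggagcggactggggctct
Impdh1, inner start, chr6:29212248-29212547, minus strand: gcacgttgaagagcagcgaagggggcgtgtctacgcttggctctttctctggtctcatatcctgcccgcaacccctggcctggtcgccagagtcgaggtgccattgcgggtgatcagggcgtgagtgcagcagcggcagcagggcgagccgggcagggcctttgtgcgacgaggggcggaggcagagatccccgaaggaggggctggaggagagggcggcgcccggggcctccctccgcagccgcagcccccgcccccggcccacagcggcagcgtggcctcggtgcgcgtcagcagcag
Impdh2, chr9:108560186-108560485, plus strand: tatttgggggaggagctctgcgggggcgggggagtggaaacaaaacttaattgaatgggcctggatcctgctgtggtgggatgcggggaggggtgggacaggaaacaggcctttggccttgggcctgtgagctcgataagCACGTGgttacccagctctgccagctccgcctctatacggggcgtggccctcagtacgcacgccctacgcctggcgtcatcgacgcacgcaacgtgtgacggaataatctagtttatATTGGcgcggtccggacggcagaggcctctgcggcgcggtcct
Neither Impdh1 window held any of these motifs. The Impdh2 window held an E-box beginning at -110 from the start and a CCAAT box in reverse orientation at 8 bases into the transcript.

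Ppat and Paics lie head to head. Ppat (gene 231327, chromosome 5, 76913249 to 76951578) is read from the minus strand and encodes the amidophosphoribosyltransferase that commits ribose phosphate to purines. Paics (gene 67054, chromosome 5, 76951302 to 76967509) is read from the plus strand and encodes a bifunctional enzyme of the middle of the pathway. Their annotated spans share 277 bases, in the first exon of each. The sources used here do not say whether strand was used in counting, so reads from these bases cannot be assigned with certainty. The windows before both starts are shown because Paics fell while Ppat did not pass and had a log2 change of the opposite sign. Each window lies wholly within the annotated span of the other gene. A match is listed under the gene whose start defines the window, and cannot be assigned to that gene alone.
Ppat, chr5:76951529-76951828, minus strand: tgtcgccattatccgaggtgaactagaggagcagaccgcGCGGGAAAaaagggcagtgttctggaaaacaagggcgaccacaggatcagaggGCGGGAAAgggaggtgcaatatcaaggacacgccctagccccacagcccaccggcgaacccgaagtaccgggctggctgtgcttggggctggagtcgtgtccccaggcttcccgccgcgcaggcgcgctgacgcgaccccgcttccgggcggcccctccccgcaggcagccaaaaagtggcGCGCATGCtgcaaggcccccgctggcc
Paics, chr5:76951052-76951351, plus strand: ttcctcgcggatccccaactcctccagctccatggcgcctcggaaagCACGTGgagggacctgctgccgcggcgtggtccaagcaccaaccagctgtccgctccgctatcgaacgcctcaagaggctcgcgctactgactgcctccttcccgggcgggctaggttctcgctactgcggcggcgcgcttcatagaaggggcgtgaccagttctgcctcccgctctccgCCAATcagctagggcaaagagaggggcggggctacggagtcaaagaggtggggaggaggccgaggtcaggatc
The Ppat window held the E2F form TTTCCCGC at -211 and -158, each in reverse orientation, and an NRF1 core at 24. The Paics window held an E-box at -203 and a CCAAT box at -23.

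Ppat was at 13.0, 18.7 and 17.1 TPM in stearic acid replicates 1, 2 and 3, against 13.0, 13.7 and 12.7 TPM in the vehicle replicates. Replicates 2 and 3 lay above the vehicle libraries and replicate 1 among them. Its log2 change was 0.28 (SE 0.12, limma adjusted p = 0.12). Paics was at 189.8, 179 and 199 TPM with stearic acid, against 215, 229 and 223 TPM with vehicle. Here all 3 stearic acid libraries were lower, replicate 1 included. The fall was small (log2 -0.23, SE 0.07, limma adjusted p = 0.036) and near the threshold: it passed in 6 of 14 alternatives and not in the other 8 (limma adjusted p over all 14 from 0.023 to 0.11). The ratio of Paics to Ppat was 14.6, 9.56 and 11.7 with stearic acid, against 16.5, 16.8 and 17.6 with vehicle (exact two-sided permutation p = 0.1, the smallest possible).

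At the other steps to IMP no gene passed. Gart (gene 14450, chromosome 16, 91621395 to 91646972) encodes a trifunctional enzyme that acts at 3 of the early steps and takes up a formyl group. It was at 47.6, 63.4 and 58.3 TPM with stearic acid and 49.8, 48.3 and 49.8 TPM with vehicle. Replicate 1 was below the vehicle libraries and replicates 2 and 3 above them. The change did not pass (log2 0.18, 95% interval -0.05 to 0.41, limma adjusted p = 0.21). Pfas (gene 237823, chromosome 11, 68985701 to 69008460) encodes the glutamine-using formylglycinamidine ribonucleotide synthase. It was at 19.9, 22.5 and 22.9 TPM with stearic acid and 20.4, 18.6 and 20.8 TPM with vehicle, with a log2 change of 0.12 (95% interval -0.07 to 0.31, limma adjusted p = 0.31). Replicates 2 and 3 were above the vehicle libraries, by little, and replicate 1 among them.

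Adsl (gene 11564, chromosome 15, 80948490 to 80970947) encodes adenylosuccinate lyase, which serves both the route to IMP and the branch to AMP. Its span contains a pseudogene, Gm6612, and Impdh2 has a pseudogene elsewhere, Impdh2-ps, so a few of their reads may be shared. It was at 28.9, 37.5 and 34.6 TPM with stearic acid, against 29.3, 26.4 and 27.3 TPM with vehicle. Replicates 2 and 3 were above every vehicle library and replicate 1 within their range (log2 0.27, SE 0.10, limma adjusted p = 0.077). Atic (gene 108147, chromosome 1, 71557156 to 71579403) encodes the bifunctional enzyme that adds the last formyl group and closes the ring to IMP. It was at 71.9, 114.9 and 99.7 TPM with stearic acid, against 72.4, 69.2 and 63.01 TPM with vehicle. Replicate 1 again lay inside the vehicle range, and replicates 2 and 3 far above it. The log2 change of 0.46 was the second largest among the members and did not pass (SE 0.15, 95% interval 0.12 to 0.80, limma adjusted p = 0.054). Without stearic acid replicate 1 it was 0.65 (limma adjusted p = 4.6e-05). The ratio of Atic to Paics was 0.379, 0.641 and 0.5002 with stearic acid, against 0.337, 0.302 and 0.282 with vehicle (exact two-sided permutation p = 0.1, the smallest possible).

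The Atic window is shown because it holds an E-box just before the start, at -7, with a CCAAT box at -224.
Atic, chr1:71556906-71557205, plus strand: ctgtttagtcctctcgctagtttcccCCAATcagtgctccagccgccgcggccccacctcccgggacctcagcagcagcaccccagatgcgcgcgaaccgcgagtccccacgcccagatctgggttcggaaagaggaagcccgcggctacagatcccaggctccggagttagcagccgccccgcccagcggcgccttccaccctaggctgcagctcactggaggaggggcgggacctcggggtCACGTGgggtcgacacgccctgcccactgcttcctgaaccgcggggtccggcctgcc
RefSeq windows matched 9 of the 10 members, all but Pfas. The E-box was in 3 of these 9 genes (Atic, Impdh2 and Paics) and in 7.15% of all 32851 windows. Of these 3, Paics fell, while Atic and Impdh2 did not pass, with log2 changes of 0.46 and -0.11. CCAAT was in 4 of the 9 genes and in 37.4% of all windows, the ETS site in Gart and in 3.89%, the NRF1 core in Ppat and in 2.71%, and the E2F forms in Ppat and in 1.07% (TTTCCCGC) and in no member and 0.514% (TTTGGCGC). The ATF4 element was in no member window and in 3.97% of all windows. The 9 genes have 10 windows, with 53% to 71.3% GC against a median of 52.7% over all windows. The Ppat and Paics windows each lie within the span of the other gene, so counting their matches under Ppat or Paics follows the start used and not a separate promoter. Enrichment was not tested. A match is a string of letters and not a measured binding site.

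Neither pyrimidine gene passed. Cad (gene 69719, chromosome 5, 31054620 to 31078479) encodes the protein that performs the opening reactions of pyrimidine synthesis, and its span shares 14 bases with that of Atraid. It was at 21.02, 29.4 and 24.6 TPM with stearic acid and at 21.3, 19.4 and 19.5 TPM with vehicle. Replicates 2 and 3 were above the vehicle libraries and replicate 1 within them (log2 0.29, SE 0.11, limma adjusted p = 0.088). Umps (gene 22247, chromosome 16, 33954782 to 33967038), which encodes the closing enzyme, was at 38.8, 42.4 and 44.0 TPM with stearic acid, against 43.1, 41.6 and 41.6 TPM with vehicle. Its libraries lay on both sides of the vehicle range, and its log2 change was -0.01 (95% interval -0.18 to 0.15, limma adjusted p = 0.89). The ratio of Cad to Umps was 0.541, 0.695 and 0.560 with stearic acid, against 0.493, 0.467 and 0.468 with vehicle (exact two-sided permutation p = 0.1, the smallest possible). Dhodh, the mitochondrial enzyme between CAD and UMPS, was at 13.8 ± 0.454 TPM with stearic acid and 13.6 ± 0.508 TPM with vehicle (SD, n = 3 each; log2 0.01, limma adjusted p = 0.91).

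Across members, stearic acid replicate 1 was the lowest of the 3 stearic acid libraries in 9 of 10 genes, the exception being Paics, and replicate 2 was the highest in 6. Replicate 1 exceeded the vehicle range in 1 member, replicate 2 in 7 and replicate 3 in 8. The median log2 difference of the 10 members from the vehicle mean was -0.01, 0.39 and 0.26 in replicates 1, 2 and 3. The spread among stearic acid libraries was larger than that among vehicle libraries in all 10 members. Over all tested genes too the stearic acid libraries differed more, correlating at 0.9877 to 0.9961, against 0.9964 to 0.9978 among vehicle libraries. The shares of all tested genes with such patterns were not computed. Without stearic acid replicate 1, limma called Ppat, Gart, Adsl, Atic, Impdh1 and Cad higher (log2 0.30 to 0.97, limma adjusted p of 0.0071 or less). Pfas, Impdh2 and Umps did not pass in that fit either. That fit called more genes in all, 2217 higher and 2796 lower.

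**Figure D3:**
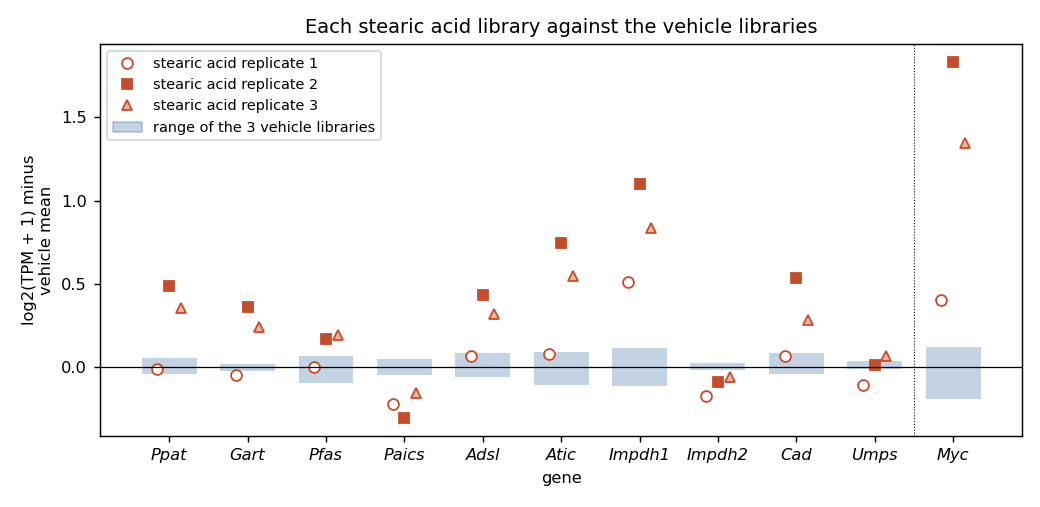
Each stearic acid library as its difference in log2(TPM + 1) from the vehicle mean, for the 10 enzymes and Myc; shaded boxes span the 3 vehicle libraries. Replicate 1 (open circle) lies below replicates 2 and 3 for every enzyme except Paics. Myc runs replicate 1, 3, 2 from low to high, as do 6 of the 10 enzymes (Ppat, Gart, Adsl, Atic, Impdh1 and Cad). The median absolute log2 distance from vehicle over all tested genes has the same order (0.112, 0.167 and 0.245). A link between Myc and the enzymes was not tested.

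Myc, the growth regulator for which these enzymes are known targets, was at 18.8, 52.7 and 37.2 TPM in stearic acid replicates 1, 2 and 3, against 15.3, 14.9 and 12.1 TPM with vehicle. Over all tested genes stearic acid replicate 1 lay nearest to vehicle, and any link between Myc and the enzymes was not tested. The rise of Myc (log2 1.19, SE 0.30, limma adjusted p = 0.023) was smallest in that replicate. It was lost without the filter and when stearic acid replicate 3 or any 1 vehicle library was left out (limma adjusted p over all alternatives 4.2e-07 to 0.0997). In the list of 11 genes of the MYC network 9 were tested, and Mxd3, a partner of MAX that opposes MYC, fell (log2 -0.53, limma adjusted p = 0.027), a call lost in the same fits as that of Myc. The other 7 did not pass, and the list median was -0.02. Thus 1 of 9 rose and 1 fell, near the 12.8% and 11.9% of all tested genes. Of 18 nucleolar and growth genes, 12 rose and none fell, against 12.8% and 11.9% of all tested genes, with a median log2 of 0.49. Srm, the spermidine synthase, rose by log2 1.27 and Rrp9, a processing factor of ribosomal RNA, by log2 0.76. Those 12 rises became 3 without vehicle replicate 1, 0 without vehicle replicate 2 or 3, and 2 without stearic acid replicate 3, and 0 with no filter on low values. Of 14 tested genes of ATF4 and mTORC1 signalling, 6 rose and none fell, against 12.8% and 11.9% of all tested genes. The median log2 was 0.08. With RPKM, a 5 TPM filter, median-of-ratios scaling or quantile normalization 1 fell, and 3 fell when stearic acid replicate 1 was left out. Trib3, a pseudokinase induced by ATF4, rose by log2 2.51 (limma adjusted p = 0.00028) and Atf5, a related transcription factor, by log2 1.65 (limma adjusted p = 0.00023).

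Of the 21 other listed genes of the de novo routes, 4 rose, 3 fell and 14 did not pass, with a median log2 of 0.07. These counts too were near the 12.8% higher and 11.9% lower of all tested genes. PRPP synthetase makes the ribose phosphate donor for both routes: Prps2 fell (34.1 ± 2.58 TPM with stearic acid and 42.0 ± 2.68 TPM with vehicle, SD, n = 3 each; log2 -0.29, limma adjusted p = 0.034). Prps1 (log2 -0.07) and its intronless relative Prps1l3 (log2 -0.07) did not pass, and near-identical copies of this kind may share reads. On the branch to AMP, the adenylosuccinate synthase gene Adssl1 rose (log2 0.23, limma adjusted p = 0.048) and Adss did not pass (log2 0.17, limma adjusted p = 0.098). On the branch to GMP after IMP dehydrogenase, Gmps, the GMP synthase, did not pass (log2 0.21, limma adjusted p = 0.11). Ctps, which turns UTP into CTP, did not pass either, at 14.4, 26.4 and 21.9 TPM with stearic acid against 15.2, 15.97 and 14.7 TPM with vehicle (log2 0.39, limma adjusted p = 0.14).

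Kinases that charge nucleoside monophosphates or diphosphates made up most of the calls. Guk1, guanylate kinase, rose (log2 0.25, limma adjusted p = 0.031), as did the mitochondrial adenylate kinase Ak4 (log2 1.19, limma adjusted p = 0.0085). Ak4 was low, at 2.03, 4.95 and 3.27 TPM with stearic acid and 0.915, 1.05 and 0.633 TPM with vehicle. The cytosolic adenylate kinase Ak1 (log2 -0.47, limma adjusted p = 0.036) and the mitochondrial nucleoside diphosphate kinase Nme4 (log2 -0.31, limma adjusted p = 0.023) fell. Of the 7 calls, Ak4 passed in 4 of 6 fits that left out 1 library and each of the others in 1 of 6. The 4 rises became 9 without stearic acid replicate 1, 0 without vehicle replicate 2 or 3, and 1 without any other single library; the 3 falls became 0 in every such fit but that without stearic acid replicate 1.

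**Figure D4:**
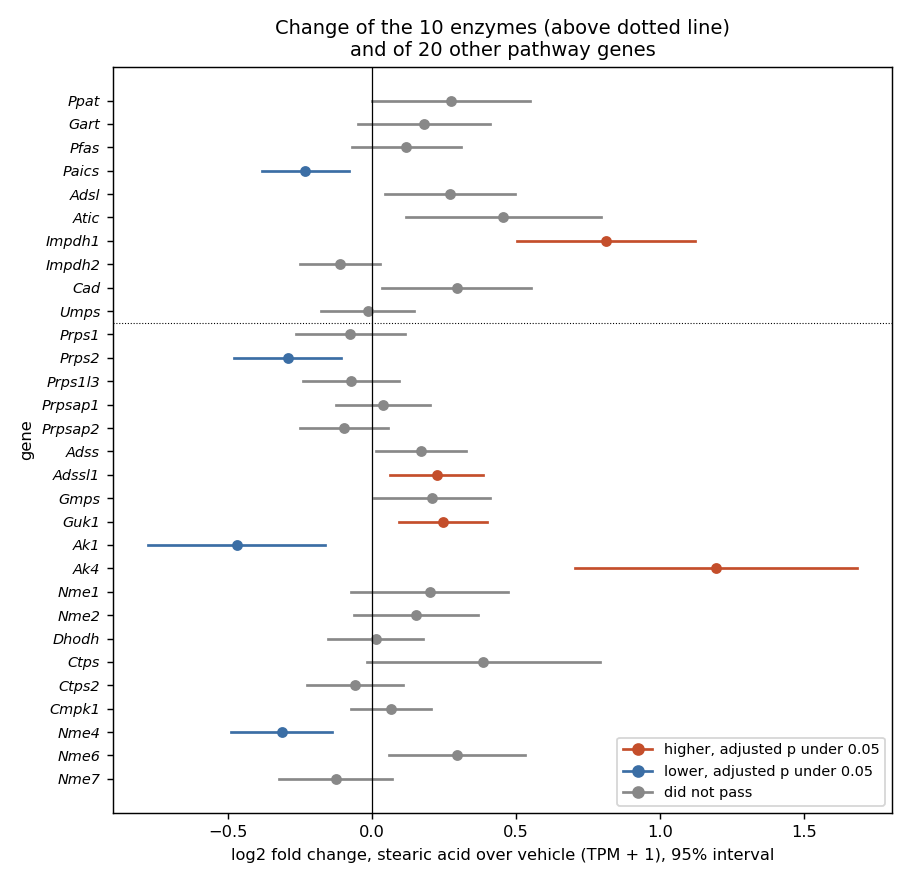
Log2 fold change on the TPM + 1 scale, stearic acid over vehicle, with its 95% interval from limma, for the 10 enzymes (above the dotted line) and 20 other genes of the de novo routes. Impdh1 at 0.81 and Ak4 at 1.19 stand apart, and most intervals include 0 or lie close to it.

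Purine rings need formyl groups, glycine and glutamine. Of 15 tested genes that supply one-carbon units, serine and amide nitrogen, 4 rose and 2 fell, against 12.8% and 11.9% of all tested genes, with a median log2 of 0.13. The risers were Asns (log2 1.28, limma adjusted p = 0.0087), Phgdh, which starts serine synthesis (log2 0.76, limma adjusted p = 0.012), Shmt2 (log2 0.58, limma adjusted p = 0.013) and Mthfd2 (log2 0.58, limma adjusted p = 0.029). Shmt2 and Mthfd2 carry the mitochondrial arm of folate metabolism. Aldh1l1, a cytosolic folate enzyme, fell (log2 -0.56, limma adjusted p = 0.018). The cytosolic enzyme Mthfd1, which makes the formyl donor used by GART and ATIC, did not pass (log2 0.21, limma adjusted p = 0.18). Asns, Phgdh and Shmt2 each passed in 4 of 6 fits that left out 1 library and not without vehicle replicate 2 or 3. Mthfd2 passed in 2 of those 6 fits and Aldh1l1 in 3. The 4 rises numbered 0 when vehicle replicate 2 or 3 was left out, 8 when stearic acid replicate 1 was, and 1 with no filter on low values.

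Most genes called among those of deoxynucleotide metabolism, salvage kinases included, fell. Of 15 tested, 7 fell and 1 rose, with a median log2 of -0.21, where 11.9% of all tested genes were lower and 12.8% higher. Tk1, the S-phase thymidine kinase, was at 194, 165 and 195 TPM with stearic acid against 253, 248 and 252 TPM with vehicle (log2 -0.45, SE 0.08, limma adjusted p = 0.0073). Dck, deoxycytidine kinase, fell by 0.48 on the log2 scale (limma adjusted p = 0.0087). The riser was Txnrd1, thioredoxin reductase (log2 1.03, limma adjusted p = 0.0029), which serves much besides ribonucleotide reduction. The 7 falls became 3 without vehicle replicate 1, 1 without vehicle replicate 2 or 3, and 3 without stearic acid replicate 2 or 3 or with no filter. Tk1 itself passed in all 14 alternatives.

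All 19 mitosis genes fell, with a median log2 of -0.47, where 11.9% of all tested genes were lower. Cdk1, the mitotic kinase, was at 132 ± 8.97 TPM with stearic acid and 182 ± 7.73 TPM with vehicle (SD, n = 3 each; log2 -0.46, limma adjusted p = 0.0051). In replicates 1, 2 and 3 the median of these 19 genes was -0.32, -0.70 and -0.44. Their fall was thus deepest in replicate 2, the library farthest from vehicle over all tested genes (median absolute log2 distance 0.245). Any link to the enzymes was not tested. Among 22 G1/S and replication genes 4 fell (Mcm7, Cdc45, Prim1 and Rfc4), Cdt1 rose and 17 did not pass. The median log2 was -0.14, and of all tested genes 11.9% were lower and 12.8% higher. The 19 mitotic falls shrank to 3 when vehicle replicate 2 was left out and to 5 when vehicle replicate 3 or the filter was. The 4 falls of replication genes became 0 with no filter or when stearic acid replicate 3 or any vehicle replicate was left out. They became 1 without stearic acid replicate 2 and numbered 6 when stearic acid replicate 1 was absent. The rise of Cdt1 was lost when stearic acid replicate 3 or either of vehicle replicates 2 and 3 was omitted.

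**Figure D5:**
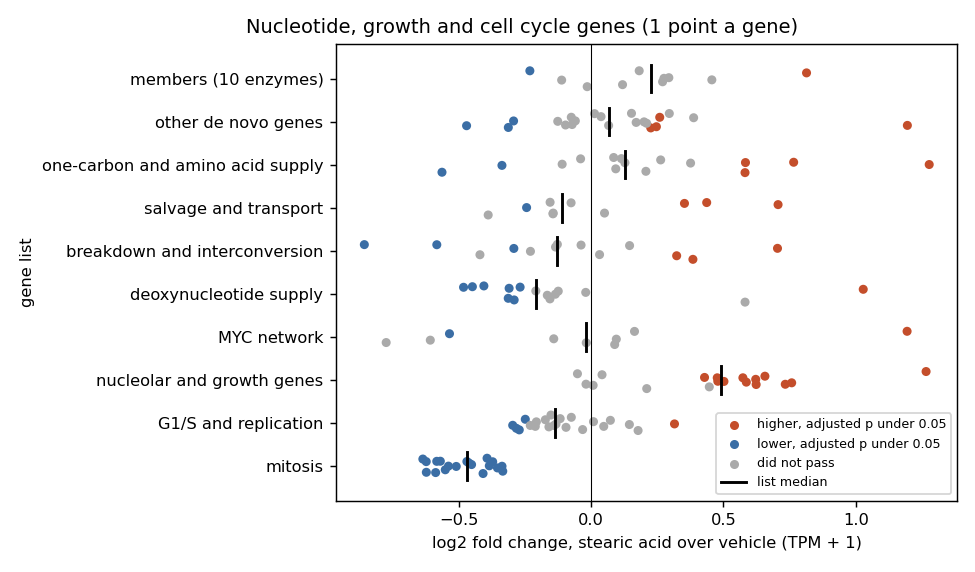
Log2 fold change, stearic acid over vehicle on the TPM + 1 scale, of each tested gene in the listed groups, coloured by its call; the black bar is the list median. The 10 enzymes have a median of 0.23. Nucleolar and growth genes have the highest median shown, at 0.49, and mitosis genes the lowest, at -0.47, so every other list lies between them.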

How the data were processed

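RNA sequencing of polyadenylated RNA came from 3 stearic acid and 3 vehicle libraries. The deposited tables hold, per the file headers, a TPM and an RPKM value per gene, and the TPM values of a library sum to 1e+06. RPKM, deposited by the authors beside TPM, served as an alternative and for depth. Per the submitters' processing notes the tool was DRAGEN and the builds GRCm38 and mm10, names of 1 assembly; the sources used here do not give the annotation or the counting rule, strand included. Per the labels' protocols, libraries were made with a stranded mRNA kit.

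The tables hold no counts, so limma 3.58.1 (R 4.3.3) with a mean-dependent prior variance was fitted to log2(TPM + 1) of the 11551 genes whose mean reached 1 TPM, with treatment as its only term and Benjamini-Hochberg adjustment (threshold 0.05). Fold changes are on that scale, which understates changes of low genes. TPM is a share, so changes are relative to other transcripts. Depth came from RPKM steps of genes with 1 exon: 71.7% to 76.3% of 226 to 251 checked values per library were whole reads within 0.02, so no counts were rebuilt. Coordinates, promoters and motifs are RefSeq's on GRCm38.p6, matched by gene number. Exons are GENCODE M21's. The fit was tested on simulated data in which both groups had a spread taken from the vehicle libraries. That simulation did not cover the wider spread among stearic acid libraries.

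Members and lists were chosen with earlier results of these data known. Named were all members, the remaining steps of the route, Myc, and from each list the 2 called genes with the smallest p, or all called where 5 or fewer were; not all are printed, and a few genes are not reported here. Castor1, listed with the ATF4 and mTORC1 genes, was not found by that name. The 14 alternatives were other pseudocounts, filters, unit and scalings, a replicate block and each library left out.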

Additional observations from a re-analysis of the deposited data

How the results depend on the processing

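Values were recomputed under 14 alternatives. Impdh1, Paics and the members that did not pass kept their sign in all 14, except Umps, whose log2 change near 0 turned in 4. Leaving out 1 library moved the members higher between 0 and 6 and the members lower between 0 and 1. The other de novo genes higher ranged from 0 to 9 and those lower from 0 to 3, and all genes higher from 384 to 2217 and lower from 136 to 2796. With no filter on low values (21632 genes), 0 members and 0 other de novo genes were lower, 0 other de novo genes were higher, and 672 genes were higher and 355 lower in all. Paics was also lost, leaving 0 members lower, with RPKM and with median-of-ratios scaling. The cause was not tested. No scaling moved the median log2 of all genes by over 0.1.

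The labels share replicate numbers between groups but give no pairing. The deviations of same-numbered libraries correlated at 0.070, 0.29 and 0.039, and stearic acid replicate 1 correlated best with vehicle replicate 3 (0.27). With the replicate number as a block 2 members were higher, Impdh1 and Atic (limma adjusted p = 0.024), and 1 lower.

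All members lay above 12 TPM in every library. Their calls moved with which library was left out. mRNA levels say nothing of enzyme amount, enzyme activity or nucleotide pools, which were not measured here.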

Other observations

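Salvage and breakdown genes of nucleotides, which lie outside the de novo routes, were also listed. Of 10 tested salvage and transport genes 3 rose and 1 fell, where 12.8% of all tested genes were higher and 11.9% lower, and the list median was -0.11. Uck2, a uridine and cytidine kinase, was at 9.53, 16.7 and 13.1 TPM with stearic acid, against 7.90, 7.07 and 7.45 TPM with vehicle (log2 0.71, SE 0.16, limma adjusted p = 0.018). Replicate 1 was the lowest of the stearic acid libraries here too, and above every vehicle library. Aprt, which salvages adenine, rose (log2 0.35, limma adjusted p = 0.033), as did the nucleoside transporter Slc29a2 (log2 0.44, limma adjusted p = 0.0399). Hprt, which salvages hypoxanthine and guanine, fell (302 ± 4.72 TPM with stearic acid and 358 ± 28.01 TPM with vehicle, SD, n = 3 each; log2 -0.24, limma adjusted p = 0.037). Leaving out vehicle replicate 1 or stearic acid replicate 2 reduced the 3 rises to 1, and leaving out vehicle replicate 2 or 3, stearic acid replicate 3 or the filter reduced them to 0. Hprt passed when stearic acid replicate 1 was left out and in none of the 5 fits without another library.

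Among 13 tested breakdown and interconversion genes 3 rose and 3 fell, where 12.8% of all tested genes were higher and 11.9% lower. Ampd3, an AMP deaminase that returns AMP to IMP, was at 46.3, 59.5 and 52.3 TPM with stearic acid and 31.8, 29.6 and 34.2 TPM with vehicle (log2 0.70, SE 0.10, limma adjusted p = 0.0035), and Ampd2 rose too (log2 0.38, limma adjusted p = 0.016). Pnp, purine nucleoside phosphorylase, fell to 230.3, 184 and 213 TPM with stearic acid, against 297, 326 and 316 TPM with vehicle (log2 -0.58, SE 0.09, limma adjusted p = 0.0045). Its near-identical neighbour Pnp2 may share its reads. Ampd3 and Pnp passed in all 14 alternatives. The 3 rises became 1, and the 3 falls 1, when vehicle replicate 2 or 3 was left out; the rises also became 1 without stearic acid replicate 3, the falls 1 without vehicle replicate 1, and the falls 5 without stearic acid replicate 1.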
